A study of Mus musculus with 194 samples.

Results

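Rbm3 and Cirbp encode the 2 closely related cold-inducible RNA-binding proteins, and their rows were taken by name from a table of 23420 gene rows measured in single mouse lymphoid cells. The pair was chosen by measured values, namely levels, the coupling of both genes, likeness in related cells, correlates and the relation to time since division, with earlier results of these data known, so those measures are given as descriptions without a test. Each protein carries a single RNA recognition motif followed by a glycine-rich tail, and both bind RNA in the nucleus and the cytoplasm. Their transcripts accumulate when mammalian cells are cooled mildly below body temperature, in contrast to heat-shock genes, and RBM3 is known for promoting translation and for protecting neurons in the cold. CIRBP is known for stabilising bound mRNAs, among them that of the circadian regulator Clock, and for acting as a danger signal once it is released from cells.

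The study followed the progeny of single founder cells in traps of a microfluidic device, held at body temperature according to its methods, and sequenced each released cell by Smart-Seq2 after 2 generations. CD8 denotes primary CD8+ T-cells of C57BL/6J mice, activated for 30 h on plate-bound anti-CD3 (5 µg per ml) with soluble anti-CD28 (2 µg per ml) and then grown on the chip with IL2 (100 U per ml). L1210 denotes the lymphocytic leukemia line ATCC CCL-219 from DBA subline 212, an established line grown on the chip without those agents. No treatment by cold is named, and temperature was not an experimental variable. The methods give no temperature for the preparation of the cells or for the tubing through which they left the chip. The mice were of both sexes and several ages, and the labels name neither the mouse nor the device run of a cell, so mouse, run and lineage cannot be told apart.

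Expression is given in TPM, a share of all transcripts that is scaled per transcript length, and a gene above 0 TPM counts as detected. Of the L1210 libraries 81 of 88 were kept and of the CD8 libraries 97, after removal of 4 CD8 and 2 L1210 doublets and of 5 libraries of each type in which under 1000 genes were detected. They came from 34 CD8 and 26 L1210 lineages, a lineage being all cells of 1 founder, and 27 and 24 of these held at least 2 cells. The retained CD8 cells had 2639 to 10905 detected genes (median 6862) and the L1210 cells 1610 to 10454 (median 8402). In CD8 cells all 7 T-cell and CD8 markers had a median above 0 TPM and Cd4 was at or below 1.81 TPM, whereas in L1210 cells all 7 had a median of 0. In L1210 cells 7 of 8 B-lineage markers had a median above 0 TPM (summed level 485 to 4863 TPM), and in CD8 cells none did (0 to 283 TPM). The labelled CD8 identity therefore matched its markers, and the L1210 cells carried B-lineage rather than T-cell transcripts.

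On the mouse genome (GRCm38) Rbm3 (ENSMUSG00000031167.16) occupies bases 8138975 to 8145880 of chromosome X (minus strand). An antisense gene, Rbm3os, overlaps its 5′ part (X, 8145429 to 8147964, plus strand) and has no row in the table. Smart-Seq2 does not mark strand, so reads from Rbm3os cannot be told apart from those of Rbm3 in the shared stretch. Cirbp (ENSMUSG00000045193.13) occupies bases 80165985 to 80172786 of chromosome 10 (plus strand), and 1600002K03Rik starts 158 bases beyond its end. Because Cirbp is a reference case of transcription induced by mild cold, 2 RefSeq promoter windows of Cirbp are shown, each of 300 bases (250 before a start site and 50 after it, GRCm38.p6). Capitals mark the octamer TCCCCGCC, named a mild-cold-responsive element in work on this gene, and GC boxes (GGGCGG, or CCGCCC on the other strand).
Cirbp window 1, chr10:80167589-80167888, plus strand: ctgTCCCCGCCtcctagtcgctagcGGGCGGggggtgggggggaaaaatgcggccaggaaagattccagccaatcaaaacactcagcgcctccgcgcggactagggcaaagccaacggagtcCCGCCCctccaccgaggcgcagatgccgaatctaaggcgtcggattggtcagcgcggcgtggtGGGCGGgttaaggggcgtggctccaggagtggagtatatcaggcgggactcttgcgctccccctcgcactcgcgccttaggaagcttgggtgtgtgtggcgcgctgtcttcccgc
Cirbp window 2, chr10:80167921-80168220, plus strand: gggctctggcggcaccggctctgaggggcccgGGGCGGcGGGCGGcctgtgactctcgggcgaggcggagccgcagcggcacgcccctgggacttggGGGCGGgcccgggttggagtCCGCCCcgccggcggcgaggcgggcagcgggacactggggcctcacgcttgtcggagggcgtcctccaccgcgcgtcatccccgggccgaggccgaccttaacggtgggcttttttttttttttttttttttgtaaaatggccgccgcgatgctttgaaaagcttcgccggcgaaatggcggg
The octamer begins 247 bases before the start site of window 1 on the strand of the gene and is missing from window 2. Window 1 holds 3 GC boxes and window 2 holds 4, none overlapping the octamer. Searched on both strands, TCCCCGCC occurred in 5.38% of 32851 RefSeq promoter windows of the same length, GGGCGG in 35.7% and CCAAT in 37.4%, and CCAAT was found 2 times in window 1 and 0 times in window 2. A match describes these letters only, since no binding was measured.

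Rbm3 was among the most abundant transcripts of both cell types. In CD8 cells it was detected in 97 of 97 cells, from 360 TPM in the lowest cell over a median of 1073 TPM to 4599 TPM in the highest. In L1210 cells it was detected in 80 of 81 cells, from 0 TPM over a median of 925 TPM to 1918 TPM. By median level it stood at position 110 of 23420 rows in CD8 cells and at position 121 in L1210 cells. The only L1210 library at 0 TPM was L1210_8, which held 2718 detected genes and gave 79.3% of its TPM to Rn45s, the ribosomal RNA precursor (median over L1210 cells 21.9%). The next lowest, L1210_15 at 210 TPM, had 1610 detected genes. L1210_8 also held 128 TPM of Y-linked transcripts, which reached at most 0.73 TPM in the other retained L1210 cells. Their origin in that library was not tested.

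Cirbp was present at far lower levels and was often not detected. In CD8 cells it was above 0 TPM in 73 of 97 cells, with a median of 18.99 TPM and a maximum of 200 TPM. In L1210 cells it was above 0 TPM in 65 of 81 cells, with a median of 15.7 TPM and a maximum of 144 TPM. Rbm3 exceeded Cirbp in 97 of 97 CD8 and 80 of 81 L1210 cells, and where Cirbp was detected the ratio of Rbm3 to Cirbp TPM had a median of 34.9 in CD8 and 40.3 in L1210 cells. Detection of Cirbp moved with the depth of a library. All 6 CD8 and all 4 L1210 cells with fewer than 4000 detected genes had Cirbp at 0 TPM, against 18 of 91 and 12 of 77 of the deeper cells. The table keeps no read counts, so a 0 cannot be separated from a transcript missed in the library.

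Among the RBM and hnRNP proteins, relatives that package and splice RNA, Rbm3 ranked at position 1 of 26 genes by median TPM in CD8 and again in L1210 cells. Hnrnpk, Hnrnpa1 and Hnrnpa2b1 followed, at 740, 653 and 672 TPM in CD8 cells and 734, 684 and 531 TPM in L1210 cells. Cirbp stood at position 23 in each cell type. This order concerns TPM, which are scaled per transcript length.

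**Figure D1:**
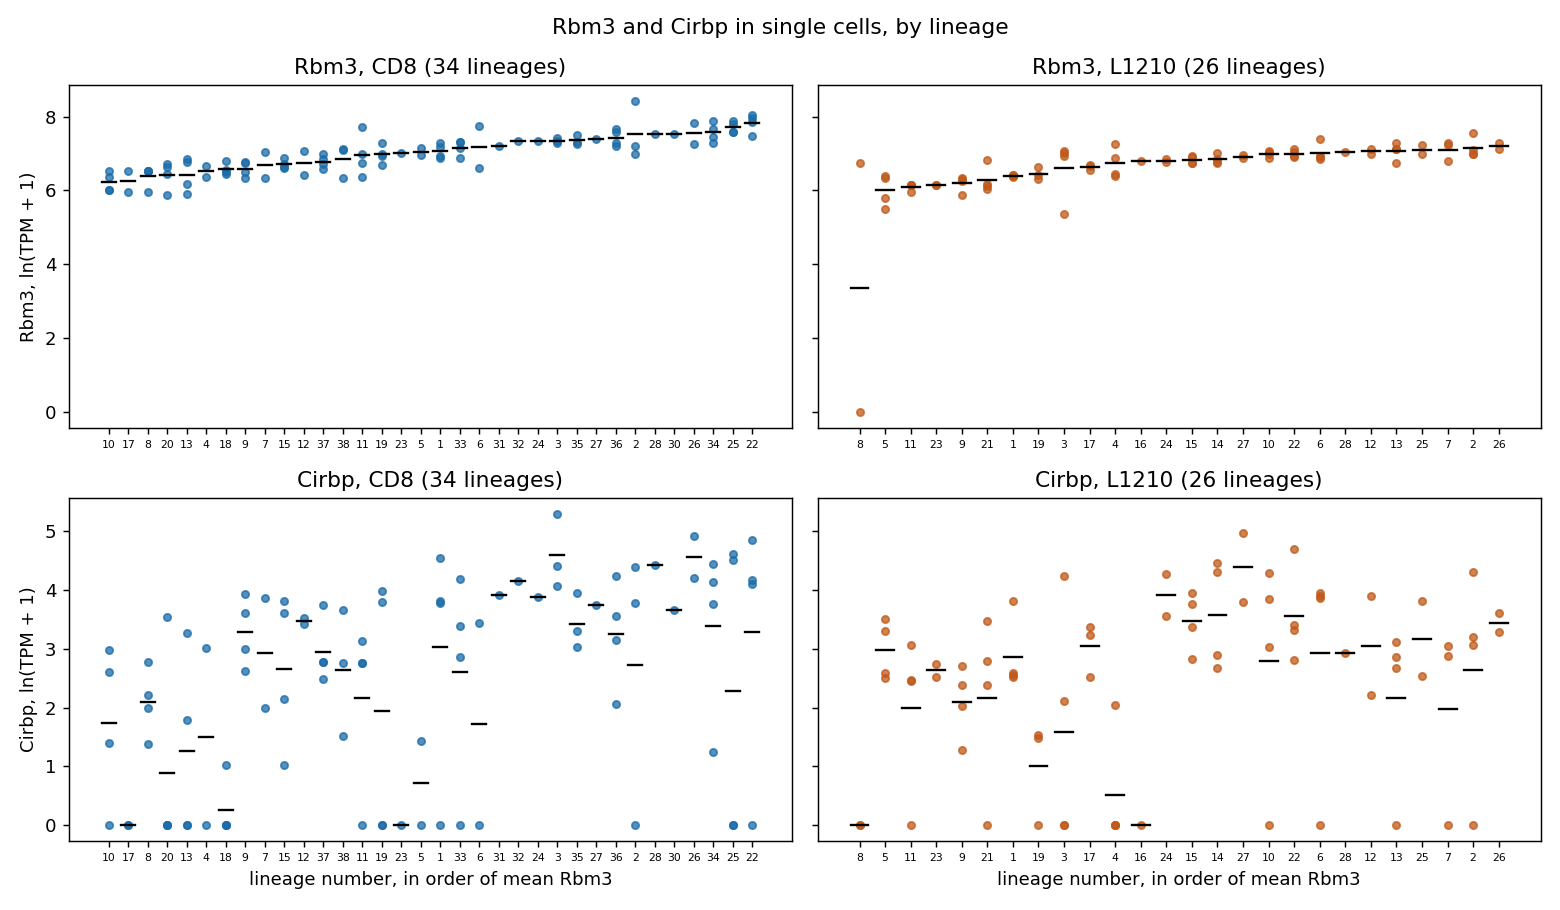
Each point is the ln(TPM + 1) of Rbm3 (top) or Cirbp (bottom) in 1 cell, and each bar the mean of a lineage, for CD8 (left) and L1210 (right), with lineages ordered by mean Rbm3. The highest and lowest Rbm3 cells of a CD8 lineage differ by a median of 1.74-fold, single cells such as L1210_8, L1210_15 and CD8_7 lie far from their bar, and Cirbp is at 0 in some cells of 14 of 27 CD8 and 10 of 24 L1210 lineages that also hold cells above 0.

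Levels of the cell types were set side by side as lineage means of ln(TPM + 1), since cells of a lineage are not independent. The mean Rbm3 level was 7.04 ± 0.45 (SD, n = 34 lineages) in CD8 and 6.61 ± 0.75 (SD, n = 26) in L1210 cells, and the ranges of 6.23 to 7.83 and 3.37 to 7.19 overlapped. Rbm3 was higher in CD8 cells by 0.43 ± 0.16 (SE) on the ln(TPM + 1) scale. This averages over CD8 lineages whose level shifted with cell number, as set out below. Over all 11373 genes 63.1% differed between the cell types (limma, Benjamini-Hochberg), 13.3% being higher in CD8 and 49.8% higher in L1210. The median difference over all genes was -0.41, so Rbm3 lay 0.84 above the typical gene in these settings. With 0.1 or 10 added to TPM in place of 1, the median was -0.68 and -0.14 and the Rbm3 difference 0.47 and 0.38. Without the filter on low values they were -0.06 and 0.43, and with detected genes as a covariate -0.15 and 0.50. The Rbm3 difference was 0.30 without L1210_8 and 0.26 in cells with at least 4000 detected genes. It was 0.37 when lineages with a single retained cell were left out.

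For Cirbp the lineage means averaged 2.62 ± 1.28 (SD, n = 34) in CD8 and 2.50 ± 1.13 (SD, n = 26) in L1210 cells, ranging from 0 to 4.59 and from 0 to 4.39. The difference of 0.13 ± 0.31 (SE) was smaller than the spread between lineages, and its sign changed with the choice of cells.

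The highest and the lowest cell of a lineage differed by a median of 1.74-fold in CD8 lineages, and by less than 2-fold in 20 of 27. In L1210 lineages the median was 1.29-fold over the 23 lineages with Rbm3 detected in every cell, and 19 of 24 lineages stayed below 2-fold. The 4 cells of CD8 lineage 10, the lowest, held 679, 579, 405 and 412 TPM. Those of CD8 lineage 22, the highest, held 1766, 3076, 2599 and 2831 TPM. No cell of the former reached any cell of the latter. In L1210 lineage 1 all 4 cells lay between 574 and 607 TPM, and in L1210 lineage 26 the sisters held 1444 and 1225 TPM.

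The mean absolute difference in ln(TPM + 1) between related cells (sisters and cousins) was set against that between cells of different lineages. For Rbm3 in CD8 cells it was 0.344 in 43 sister and 72 cousin pairs and 0.621 in 4541 unrelated pairs, 44.6% lower. In L1210 cells it was 0.335 in 38 sister and 62 cousin pairs and 0.652 in 3140 unrelated pairs, 48.5% lower. Against the 489 unrelated pairs within 1 h of each other in time since division (0.471) it was 28.7% lower. Without L1210_8, the library at 0 TPM, the related and unrelated means were 0.271 and 0.495, 45.4% lower. The comparison within 1 h was not repeated without that library, so the part of time in it was not tested. The difference among relatives was the smaller in 22 of 27 CD8 and 22 of 24 L1210 lineages. Ordered by this percentage, Rbm3 took position 29 of 9997 genes in CD8 and position 7 of 10536 in L1210 cells. The median gene was 7.77% and 8.45% lower. The L1210 position was computed with L1210_8 kept. The L1210 exceptions were lineage 3, with the shallow cell L1210_15, and lineage 8, where L1210_8 at 0 TPM had a sister at 845 TPM.

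Cirbp was less alike in relatives. Its mean difference was 1.63 in related and 1.89 in unrelated CD8 pairs, 13.5% lower, and smaller among relatives in 18 of 27 lineages. In L1210 cells the values were 1.34 and 1.59, 15.7% lower, with 15 of 24 lineages in that direction. It took position 2890 of 9997 and 2357 of 10536. In 14 of 27 CD8 and 10 of 24 L1210 lineages some cells held Cirbp and others were at 0 TPM. The 4 cells of CD8 lineage 22 held 59.2, 0, 64.1 and 127 TPM, and the cell at 0 was the shallowest of them with 2952 detected genes.

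**Figure D2:**
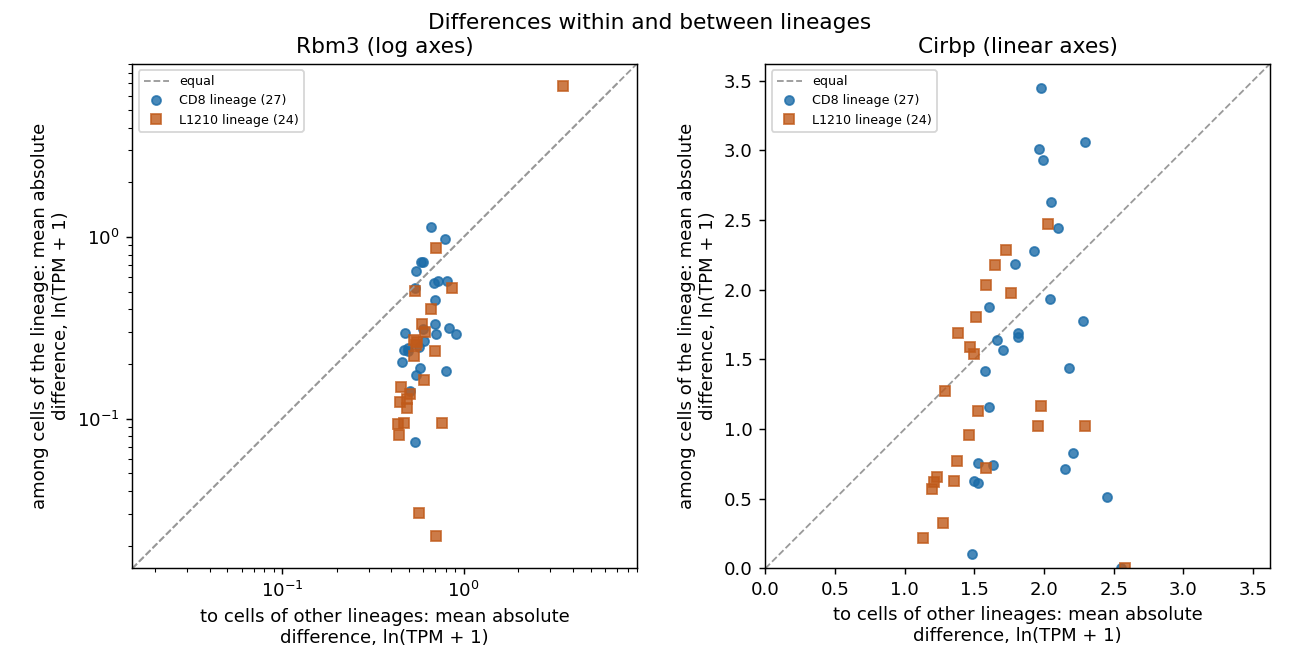
Each point is a lineage of at least 2 cells. The mean absolute difference in ln(TPM + 1) among its cells is plotted against that to cells of other lineages, for Rbm3 on log axes and Cirbp on linear axes. For Rbm3, 22 of 27 CD8 and 22 of 24 L1210 lineages lie below the dashed line of equality, and for Cirbp 18 and 15.

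As a share of the variance between cells, lineage accounted for 63.4% of Rbm3 in CD8 and 35.7% in L1210 cells. Ordered by this share, Rbm3 took position 21 of 9997 genes in CD8 and 582 of 10536 in L1210 cells. The corresponding shares of Cirbp were 16.8% and 23.5%, and the median over all genes was 9.02% in CD8 and 10.9% in L1210. A single library weighed on the L1210 share of Rbm3, which was 58.1% without L1210_8 and 76.2% in cells with at least 4000 detected genes. In the same deeper cells the share of Cirbp was 38.99% in CD8 and 13.1% in L1210.

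Sisters were compared with cousins in lineages that held both kinds of pair, a comparison that the choice of genes did not use. For Rbm3 in CD8 cells sisters differed by 0.377 and cousins by 0.320, a difference of 0.057 ± 0.234 (SD, n = 20 lineages), and sisters were the closer in 6 of 20. In L1210 cells the values were 0.232 and 0.296, a difference of -0.064 ± 0.190 (SD, n = 17), with sisters the closer in 5 of 17. For Cirbp the difference was -0.13 ± 1.28 (SD, n = 20) in CD8 and 0.03 ± 0.82 (SD, n = 17) in L1210 cells. None of the 4 comparisons passed (adjusted p = 0.609, 0.609, 0.933 and 0.933 in that order, 2-sided sign-flip permutation tests, 100000 resamples). The spread between lineages exceeded each difference.

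The CD8 lineage means of Rbm3 also followed the cell number in the sample names. When the 34 lineages were taken in the order of these numbers and divided into 4 successive runs, the mean Rbm3 level was 6.93 ± 0.40 (SD, n = 9 lineages), 6.59 ± 0.28 (n = 9), 7.49 ± 0.25 (n = 8) and 7.21 ± 0.28 (n = 8). The second run spanned cells 29 to 62, with a median of 748 TPM, and the third cells 65 to 80, with a median of 1956 TPM. Lineage means of the second run (6.23 to 6.97) did not overlap those of the third (7.01 to 7.83). The average of the second run was close to the 6.61 of the L1210 lineages, and those of the other runs lay above it. The higher Rbm3 of CD8 cells was thus not seen in every run. For Cirbp the runs averaged 2.51, 1.60, 3.23 and 3.29. Median detected genes were 7244, 6748, 6689 and 6823 in the 4 runs. The labels do not say what the number stands for, and its part in the likeness of relatives cannot be told apart from lineage. Detection of Xist, which marks the inactive X, and of Y-linked genes also changed along the order. CD8 lineages 20 (cells 59 to 62) and 22 (cells 65 to 68) had mean Rbm3 levels of 6.42 and 7.83. Both had Xist in all 4 cells and Y-linked transcripts in 0.

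Against unrelated cells of the lineages next in number only, relatives were 32.4% closer for Rbm3 in CD8 cells (0.344 against 0.509) and 1.05% closer for Cirbp. With the mean of its run removed from each cell, the lineage share of Rbm3 was 35.8% in CD8 and 33.6% in L1210 cells, and that of Cirbp 1.61% and 16.4%. In L1210 cells lineages next to each other by lowest number were no more alike in mean Rbm3 (0.679) than the others (0.641). Cells of an L1210 lineage are numbered far apart, and the 4 L1210 runs overlapped (cells 1 to 82, 8 to 84, 40 to 86 and 55 to 87). The L1210 values therefore cannot serve as a counterpart to those of CD8.

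**Figure D3:**
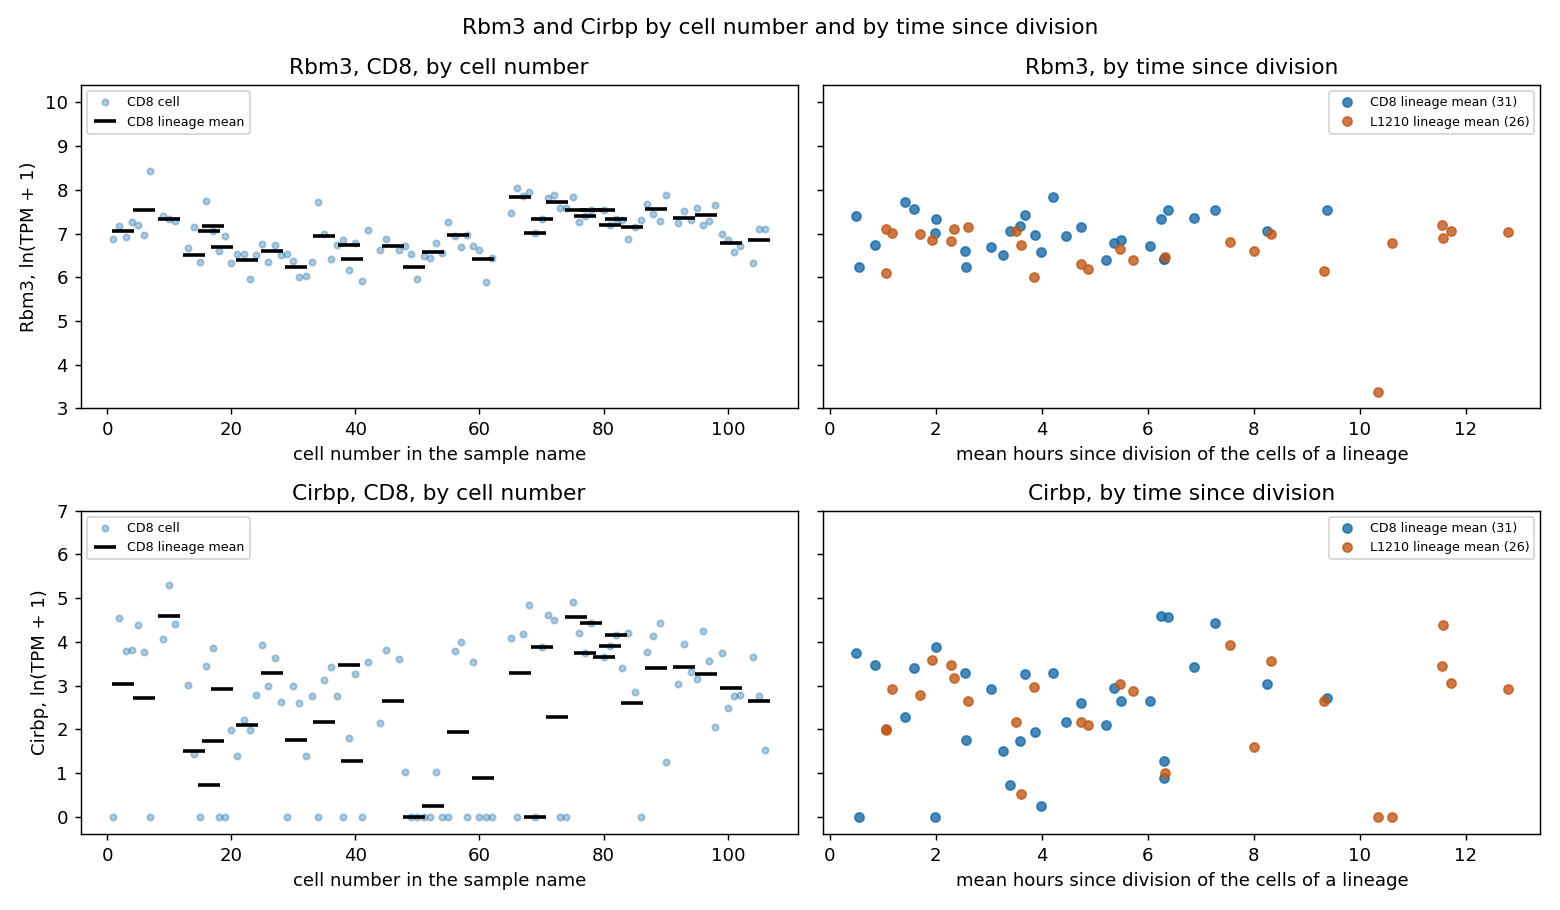
Left, ln(TPM + 1) of Rbm3 and Cirbp in CD8 cells (points) and the mean of each lineage (bars) against the cell number in the sample name. Right, lineage means of CD8 and L1210 against mean hours since division. Between cells 29 to 62 the CD8 lineages lie lower in Rbm3 (6.23 to 6.97) than between cells 65 to 80 (7.01 to 7.83), and the slopes with hours lie between -0.03 and 0.12 per h.

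Lineages with more Rbm3 tended to hold more Cirbp, while within lineages the genes were hardly related when all retained cells were used. Over cells, Spearman's rho between them was 0.42 in CD8 (n = 97) and 0.31 in L1210 (n = 81). Over lineage means it was 0.63 (n = 34) in CD8 and 0.39 (n = 26) in L1210. For deviations of cells from their own lineage mean it was -0.02 (n = 90) and 0.09 (n = 79). Among cells with Cirbp detected rho was 0.57 in CD8 (n = 73) and 0.46 in L1210 (n = 65). In cells with at least 4000 detected genes rho was 0.57 in CD8 (n = 91) and 0.34 in L1210 (n = 77). All cells below that depth had Cirbp at 0 TPM. The deviations from lineage means were not recomputed without them, so the part of missed Cirbp within lineages was not tested. After removal of the run means rho was 0.27 in CD8 cells. Rbm3 was the gene with the fourth highest rho for Cirbp among 9996 genes in CD8 cells, and took position 227 of 10535 in L1210 cells. From the side of Rbm3, Cirbp took positions 23 and 98. Cells of a lineage share founder, lane and release, and all genes of a cell share its library and depth, so these values carry no p.

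**Figure D4:**
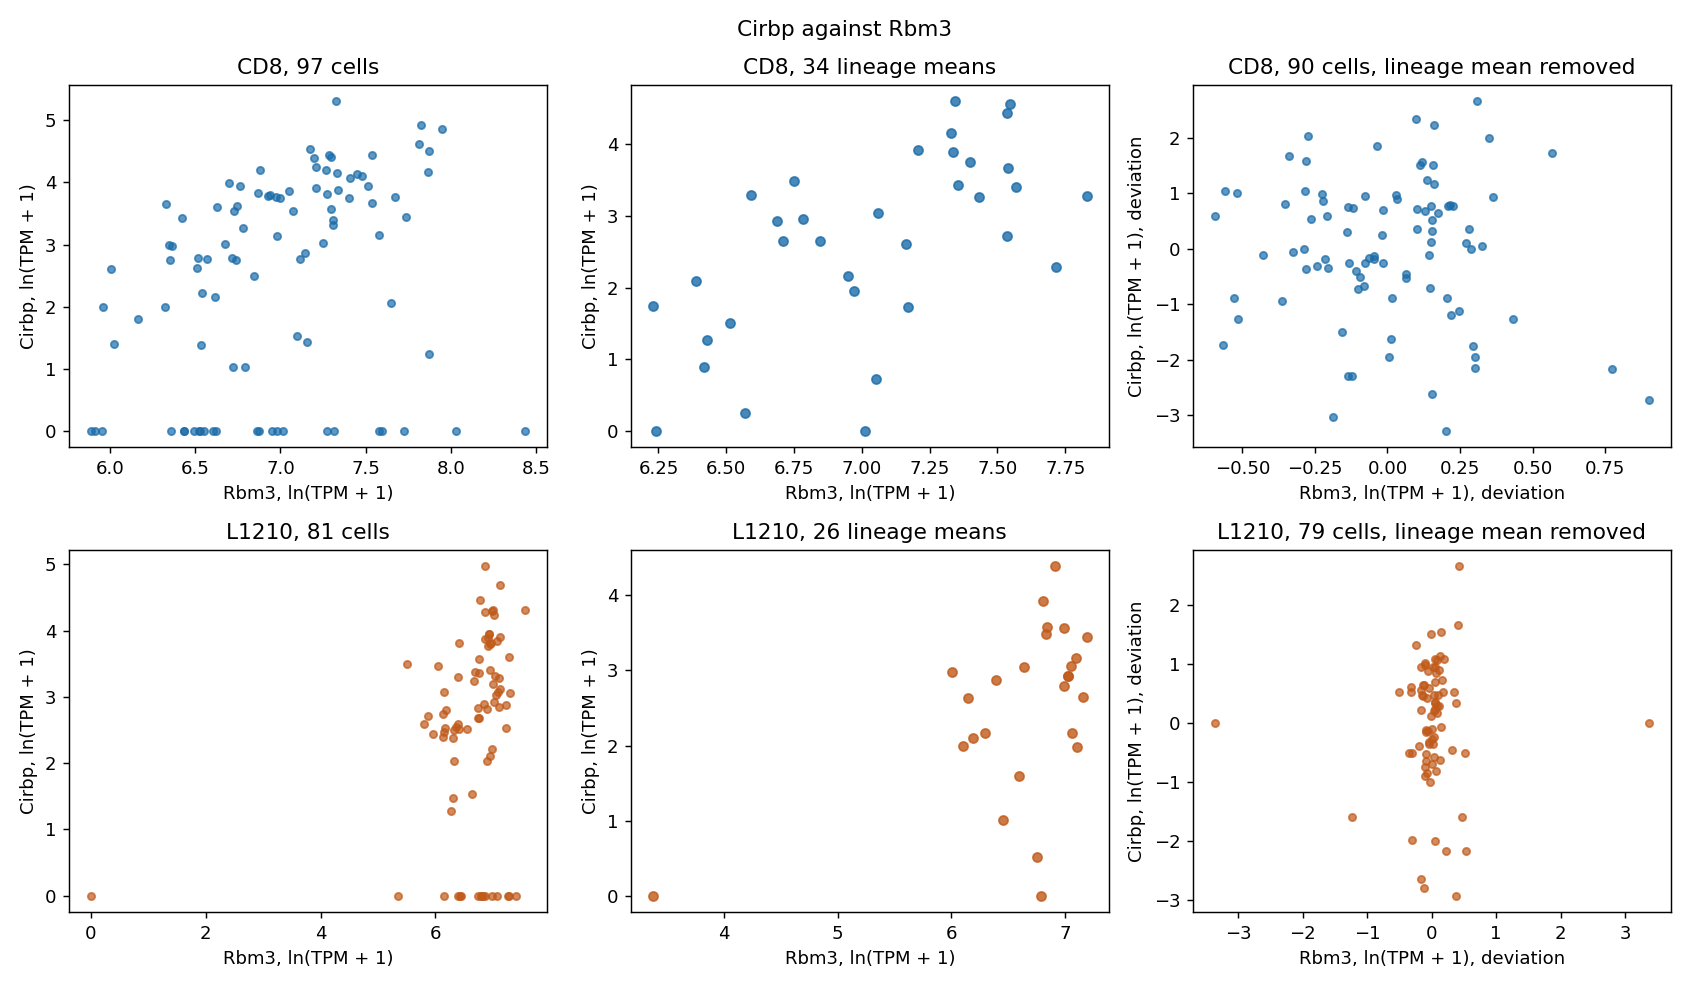
Cirbp against Rbm3, both in ln(TPM + 1), for cells (left), lineage means (middle) and deviations of cells from their lineage mean (right), in CD8 (top) and L1210 (bottom). Spearman's rho is 0.42, 0.63 and -0.02 in CD8 and 0.31, 0.39 and 0.09 in L1210.

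The genes most like Rbm3 differed between the cell types. In CD8 cells 8 of the 10 highest correlates were ribosomal protein genes or a copy of one, led by Rpl3 (rho = 0.56) and Rps4x (0.56). Rps15a-ps4 among them is a processed copy whose reads may be shared with its parent gene. The others were Slc25a5, a mitochondrial ADP/ATP carrier (0.51), and Tmsb10, an actin-binding thymosin (0.47). Of 78 ribosomal protein genes measured in CD8 cells 75 had a positive rho with Rbm3 (median 0.33), against a median of -0.14 over all genes. In L1210 cells 16 of 79 were positive (median -0.13, all genes -0.10). Within CD8 lineages the 10 genes kept a positive rho, from 0.21 to 0.49 (n = 90 cells).

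The lowest correlates of Rbm3 in CD8 cells were Odc1, the rate-limiting enzyme of polyamine synthesis (rho = -0.70), Dusp2, a nuclear MAP kinase phosphatase (-0.68), and 1110008F13Rik (-0.65). Over lineage means Odc1 reached -0.87 (n = 34), within lineages -0.38 (n = 90) and after removal of the run means -0.56. In L1210 cells the rho of Odc1 with Rbm3 was -0.33 and that of Dusp2 0.04.

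In L1210 cells the highest correlates of Rbm3 were Ptp4a3, a phosphatase (rho = 0.68), Txnrd1, thioredoxin reductase (0.65), Fth1 and Ftl1, the ferritin chains (0.60 and 0.55), and Gclm, the modifier subunit of the enzyme that starts glutathione synthesis (0.58). Bax, a promoter of apoptosis, had 0.49, and -0.19 within lineages (n = 79). The relation of several had the opposite sign in CD8 cells, where rho with Rbm3 was -0.64 for Gclm, -0.46 for Txnrd1 and -0.40 for Ptp4a3. Of the 9 top genes also measured in CD8 cells 3 were positive there. Over L1210 lineage means Ptp4a3 reached 0.87 (n = 26), and within lineages it stood at 0.11 (n = 79), with 0.04 for Fth1, 0.18 for Ftl1, 0.30 for Gclm and 0.34 for Txnrd1. The lowest in L1210 cells, Lars2, the mitochondrial leucyl-tRNA synthetase (-0.56), Fam160a2 (-0.56) and Vac14 (-0.55), were negative in CD8 cells as well (-0.48, -0.31 and -0.33).

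The correlates of Cirbp were led in CD8 cells by S1pr1, the receptor for lymphocyte egress (rho = 0.49), Brk1, a subunit of the WAVE actin regulator (0.45), Pydc4 (0.42) and Rbm3 itself (0.42). H3f3a, Rbm48, AA388235, Mcts1, Paip2 and Mdh1 followed, from 0.39 to 0.37. The lowest were Faf1 (-0.49), the GTPase Rac1 (-0.49) and Ybx1 (-0.45), itself a cold-shock domain protein. In L1210 cells the highest were Cog1, a Golgi complex subunit (0.51), Gbas (0.47), Plcd3 (0.46), Lgals9 (0.46) and Lgmn (0.45). There Matr3, Prdx6 and Lrrc8a were lowest, from -0.34 to -0.32. Of the annotated neighbours, 1600002K03Rik had a rho with Cirbp of 0.24 in CD8 and 0.14 in L1210 cells, and Midn -0.43 and 0.08. For Rbm3, Wdr13 gave -0.05 and -0.25 and Tbc1d25 -0.15 and -0.25.

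Library depth moved with Rbm3. Its rho with the number of detected genes was -0.43 in CD8 (n = 97) and -0.44 in L1210 cells (n = 81), and that of Cirbp 0.04 and 0.05. With Rn45s the rho of Rbm3 was -0.33 in CD8 and 0.36 in L1210 cells. In cells with at least 4000 detected genes the 10 highest CD8 correlates of Rbm3 kept a rho of 0.42 to 0.55 (n = 91) and those of L1210 0.43 to 0.65 (n = 77). The part of depth in the correlations was not tested further.

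**Figure D5:**
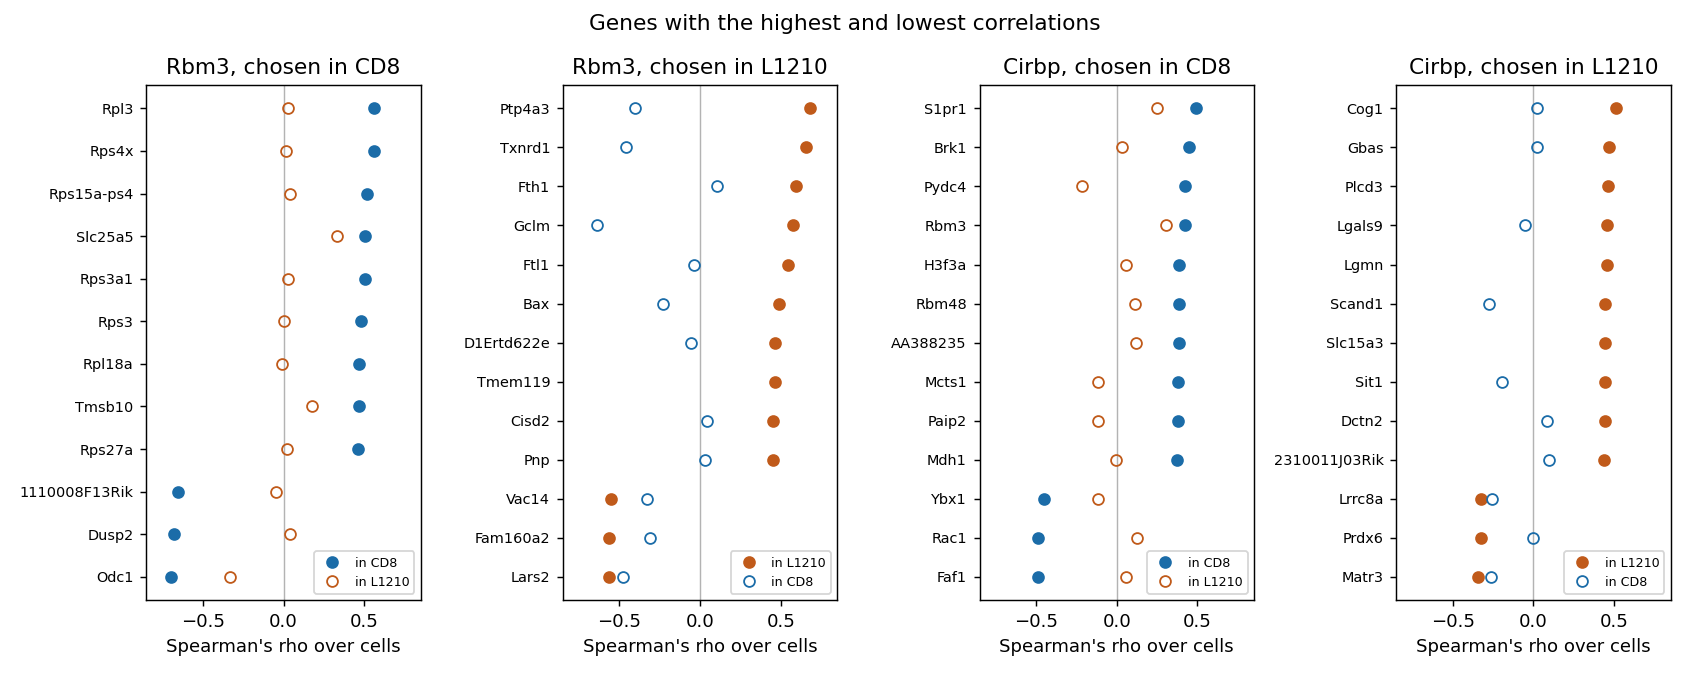
Spearman's rho over cells of the highest (up to 10) and 3 lowest correlates of Rbm3 and Cirbp, chosen in the cell type named above each panel (filled) and shown for the other cell type (open) where the gene was measured, with 1 CD8 correlate of Rbm3 not shown. For Rbm3, ribosomal protein genes lie near 0 in L1210 cells, and Gclm, Txnrd1 and Ptp4a3 have opposite signs in the 2 cell types.

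Time since division had been recorded for 94 CD8 cells of 31 lineages (0.50 to 9.47 h) and for 81 L1210 cells of 26 lineages (0.35 to 12.8 h). The slope of Rbm3 over lineage means was 0.02 ± 0.04 (SE) per h in CD8 and -0.03 ± 0.04 (SE) per h in L1210 cells on the ln(TPM + 1) scale. For Cirbp it was 0.12 ± 0.09 (SE) per h in CD8 and -0.01 ± 0.06 (SE) per h in L1210 cells. Over single cells rho with hours was -0.01 and 0.11 in CD8 and -0.07 and -0.05 in L1210 cells, for Rbm3 and Cirbp. CD8 lineages between 0 and 3 h averaged 6.98 ± 0.56 (SD, n = 9) in Rbm3, those between 3 and 6 h 6.95 ± 0.39 (n = 13) and those between 6 and 9 h 7.05 ± 0.47 (n = 8). L1210 lineages averaged 6.90 ± 0.34 (n = 8), 6.48 ± 0.36 (n = 7) and 6.71 ± 0.24 (n = 4) in the same intervals and 6.36 ± 1.36 (n = 7) between 9 and 13 h, where lineage 8 with L1210_8 lies. Few genes passed the test of a slope, 0.04% in CD8 and 0% in L1210 cells.

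The difference in slope between the cell types, CD8 minus L1210, was 0.06 ± 0.06 (SE) per h for Rbm3 and 0.13 ± 0.11 (SE) per h for Cirbp. In the test of this difference over all genes 0% of 11373 genes passed with limma, 1224 genes having an unadjusted p under 0.05.

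Rbm3 is X-linked and the CD8 cells came from mice of both sexes, so its level was set out by detection of Xist, the RNA of the inactive X, and of 4 Y-linked genes. Rbm3 had a median of 1066 TPM in 39 CD8 cells with Xist alone (360 to 4599 TPM), 1023 TPM in 38 with Y-linked transcripts alone (386 to 2624 TPM), 789 TPM in 15 with both and 1495 TPM in 5 with neither. The ranges overlapped. For Cirbp the medians were 1.80, 19.3, 15.2 and 28.7 TPM. Against unrelated CD8 pairs alike in this detection, relatives were 47.1% closer in Rbm3 and 6.14% closer in Cirbp.

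Other genes of the cold and heat responses were taken as lists. Of the cold-shock domain proteins, which bind RNA through an older fold, 3 of 5 genes tested differed between the cell types, each higher in L1210 (63.1% of all genes called). Csdc2, with medians of 0 TPM in CD8 and 125 TPM in L1210 cells, passed the filter on low values in L1210 cells only, so that its difference was fixed by the filter. Ybx1 was alike within lineages in each cell type, with lineage shares of 48.4% in CD8 (adjusted p = 0.000333, limma F test) and 44.8% in L1210 (adjusted p = 0.00312). Its rho with Rbm3 in CD8 cells was -0.60, the lowest of the list.

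Of the heat-shock genes 10 of 15 tested differed, 9 higher in L1210 and 1 in CD8, beside 63.1% of all genes called and 49.8% higher in L1210, with a median difference of -0.46 against -0.41 for all genes. Of the 15 genes 14 passed the filter in L1210 cells, so the direction of the gene that passed in CD8 only was set by it. Hspd1, the mitochondrial chaperonin, was lower in CD8 by 0.95 ± 0.17 (SE, adjusted p = 2.3e-06, limma), at medians of 361 and 930 TPM. Spearman's rho with Rbm3 was positive for 1 of 15 heat-shock genes in CD8 (median -0.24) and 1 of 14 in L1210 cells (median -0.31), where 82.3% and 75.5% of all genes were negative, and Hsph1 was the lowest in each (-0.52 and -0.50). In CD8 cells 6 of 15 heat-shock genes were called alike within lineages (12.4% of all genes) and in L1210 cells 2 of 14 (12.9%).

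Among the RBM and hnRNP relatives 7 of 24 differed between the cell types (63.1% of all genes), 2 higher in CD8, among them Hnrnpu (0.51 ± 0.12 SE, adjusted p = 0.000286, limma). Called alike within lineages were 4 of 24 in CD8 and 1 of 24 in L1210 cells, against 12.4% and 12.9% of all genes. Hnrnpa1 had a lineage share of 42.4% in CD8 cells, and Rbm3 exceeded it. Of the SR proteins and CLK kinases, which control splicing, 5 of 16 differed (63.1% of all genes), Srsf2 being lower in CD8 by 0.93 ± 0.25 (SE, adjusted p = 0.000992, limma). Of these 3 of 16 in CD8 and 1 of 16 in L1210 cells were called alike within lineages (12.4% and 12.9% of all genes). Srsf5 had a rho with Rbm3 of 0.45 in L1210 and 0.12 in CD8 cells.

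Of the circadian clock genes, linked to both proteins through their mRNAs, 10 of 12 differed and 9 were higher in L1210 (63.1% and 49.8% of all genes). Of the 12 genes 10 passed the filter in CD8 and 11 in L1210 cells. For genes that passed in 1 cell type only the direction of the difference was set by the filter, and they are among the 12. Cry2 was lower in CD8 by 1.80 ± 0.21 (SE, adjusted p = 8.85e-11, limma) and Clock by 0.93 ± 0.16 (SE, adjusted p = 8.68e-07, limma), and both had a median of 0 TPM in CD8 cells. None of the 10 tested in CD8 cells had a positive rho with Rbm3, and 1 of 11 did in L1210 cells, beside 82.3% and 75.5% of all genes being negative. Of the translation partners 8 of 12 differed, beside 63.1% of all genes. Rps3 was higher in CD8 by 0.40 ± 0.07 (SE, adjusted p = 1.68e-06, limma) and Eif4ebp1, a repressor of cap-dependent translation, lower by 2.21 ± 0.31 (SE, adjusted p = 6.97e-09, limma). No gene of these 6 lists passed the test of a slope with time (all genes 0.04% in CD8 and 0% in L1210 cells).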

How the data were processed

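Expression was analysed in single-cell libraries of CD8 and L1210 cells, prepared by Smart-Seq2. The authors deposited TPM estimated with RSEM for UCSC-annotated genes of mm10, not log-transformed (submitters' processing notes: RSEM 1.2.3, TopHat2). The deposited TPM do not hold reads, and depth was taken here as detected genes. The quality metrics that the paper supplies for each library were not used. The study's detection weights were not used here. Lineages were built from the sister and cousin labels.

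Doublets and libraries below 1000 detected genes were left out. The working scale was ln(TPM + 1), and testing was limited to genes exceeding 1 on it in over 10% of cells in a type. Across all genes limma 3.58.1 (R 4.3.3) was fitted as a moderated linear model, with Benjamini-Hochberg adjustment at 0.05. The fits used lineage means with the lineage as replicate, or single cells for the F test of lineage. P-values of the fits to lineage means and of the sign-flip tests measure the spread between lineages. The labels do not tie that spread to separate animals or cultures. The F test sets the spread between lineages against that of cells within them, so cells are its units. Sister and cousin differences were tested by sign flips of lineage values (100000 resamples). The code was tested on simulated data. Descriptions used Python 3.11.15, pandas 2.3.3 and scipy 1.17.1.

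The members and gene lists were chosen with earlier results of these data known. Since levels and slopes with time entered that choice, the planned tests of these for Rbm3 and Cirbp are not printed. Named genes were Rbm3, Cirbp, the 10 highest and 3 lowest rho per gene and cell type, the nearest annotated neighbours, Rn45s, Xist, Y-linked genes, and up to 4 called genes per list with the lowest p, some of which are not reported here. Gclm, Odc1, Dusp2, Ybx1, Hsph1 and Srsf5 are also given in the cell type where that rule did not name them, chosen after their values were seen. The runs of cell numbers were added after the data were seen. Rbm3 had no RefSeq promoter window here and Cirbp had 2. Alternatives changed the pseudocount, filters, depth, covariates, pairs and single libraries.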

Additional observations from a re-analysis of the deposited data

How the results depend on the processing

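Of 263 recomputed values 234 kept their direction and their side of the threshold, moved by less than the spread or, for counts of genes, stayed within a set fold. Some of these could not change. A pseudocount leaves Spearman's rho as it is, and gene filters do not alter the slopes or lineage shares of Rbm3 and Cirbp. The lineage shares were computed without covariates, and L1210_8 is in no lineage of the sister and cousin comparison. The CD8 minus L1210 difference of Rbm3 ranged from 0.26 to 0.50 and was 0.37 with single-cell lineages left out. That of Cirbp turned to -0.16 in the same setting, -0.0173 in the shared range of times and -0.0001 for single cells with lineage as a random block. The difference of slopes of Rbm3 was -0.0005 at 4000 detected genes. The sister minus cousin difference of Cirbp in L1210 cells was -0.16 at 4000 detected genes and -0.10 without L1210_15. The rho of Rbm3 with Cirbp was -0.02 in CD8 and 0.0913 in L1210 cells for deviations from lineage means, and 0.63 for CD8 lineage means. The L1210 slope of Rbm3 was 0.01 per h at 4000 detected genes (0.0121) and without L1210_8 (0.0088). The likeness of Rbm3 in relatives ranged from 48.01 to 32.4% lower in CD8 and from 54.5 to 28.7% lower in L1210 cells. The smallest L1210 value was that against unrelated pairs within 1 h, with L1210_8 kept.

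Genes called alike within lineages in L1210 numbered 1360, but 518 without L1210_8, 556 at 4000 detected genes, 503 with detected genes as a covariate and 545 with the Mann-Whitney U-test on pairs. Genes changing with time in CD8 numbered 4, but 24 at a pseudocount of 10 TPM, 12 at 4000 detected genes and 23 for single cells with lineage as a random block. In L1210 they numbered 0, and 1 with detected genes as a covariate. Genes with a different slope numbered 0, but 3 at a pseudocount of 10 TPM, 3 with the random block and 1 without gene filter. Of genes differing between the cell types 21.03% were higher in CD8, and 37.2% with detected genes as a covariate. The cause was not tested in any of these. No paired analysis was possible because the cell numbers that both cell types share name single cells only. Without read counts, a Cirbp value of 0 TPM cannot be told from a missed transcript.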

Other observations

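Among the libraries left out, the 4 CD8 doublets held 824 to 2012 TPM of Rbm3, and Cirbp was above 0 TPM in 1 of them (48.4 TPM). The 2 L1210 doublets held 1412 and 1828 TPM of Rbm3 and 4.06 and 0 TPM of Cirbp. Of the 10 libraries below 1000 detected genes, 2 held Rbm3, L1210_41 with 1903 TPM at 689 detected genes and L1210_88 with 1147 TPM at 745, and none held Cirbp. The highest Rbm3 value of all cells, 4599 TPM, belonged to CD8_7, which had 2985 detected genes, while its sister CD8_6 held 1066 TPM at 5778 detected genes.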
